A study of Mus musculus with 262 samples.

Results

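The innate defence genes of kidney epithelium described here were 7 genes chosen by symbol: Lcn2, Defb1, Rnase4, Slpi, Wfdc2, Wfdc15b and Tlr4. All 7 were found in every deposited table, among 47069 genes in the TPM tables and 24111 in the count table. RNA came from kidneys of male mice aged 2 months. Single cells (C57BL/6) were sorted, captured on a microfluidic chip and given cell type names in the deposited titles, with 87 type A intercalated, 23 type B intercalated, 74 principal, 19 proximal tubule and 32 non-epithelial cells. Bulk samples of sorted cells comprised 2 c-Kit and 2 DBA samples (C57BL/6), and 2 GFP-positive and 2 GFP-negative samples of the strain Atp6v1b1GFP. The labels give DBA as an abbreviation only, and for the GFP strain only a name that joins a proton pump subunit gene to the fluorescent protein. Single tubules (C57BL/6), dissected by hand, were of 2 segments, 11 collecting ducts of the cortex (CCD) and 8 thick ascending limbs of the cortex (cTAL). No mouse was infected or treated per the labels.

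The urinary tract is kept nearly free of microbes by flow, by sensing receptors and by antimicrobial proteins that tubule cells secrete into the urine. Beta-defensins disrupt microbial membranes, lipocalin 2 withholds iron by binding bacterial siderophores, ribonucleases of the angiogenin family kill bacteria, and proteins with a whey acidic protein core inhibit proteases or act on microbes directly. Toll-like receptors sense microbial molecules and turn on such genes through NF-kB, and intercalated cells of the collecting duct are known as a source of several of these proteins.

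Lcn2 (ENSMUSG00000026822) lies at chr2:32384633-32388252 on the minus strand of GRCm38 in GENCODE M21, Defb1 (ENSMUSG00000044748) at chr8:21776599-21795185 on the plus strand, and Tlr4 (ENSMUSG00000039005) at chr4:66827584-66930284 on the plus strand. Rnase4 (ENSMUSG00000021876), at chr14:51091077-51106151 on the plus strand, overlaps Ang at chr14:51091150-51102009 on the same strand. RefSeq lists 2 start sites for Rnase4, of which 1 has the same promoter window as Ang, so how reads were divided between these genes is uncertain and every Rnase4 value below carries that uncertainty. Wfdc15b (ENSMUSG00000018211, chr2:164214454-164221660, minus strand), Slpi (ENSMUSG00000017002, chr2:164354070-164389095, minus strand) and Wfdc2 (ENSMUSG00000017723, chr2:164562413-164568510, plus strand) belong to 1 cluster of whey acidic protein genes and span 354.1 kb.

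The 3 cluster genes differed widely in where they were read, so their promoter windows are shown (RefSeq, GRCm38.p6, 250 bases before to 50 after the start site, 5′ to 3′ on the strand of the gene). Capitals mark the letters TTAAT, any 1 base and ATTA in a row, a pattern of binding sites of the HNF1 factors of kidney epithelium. That motif was chosen after the Wfdc15b window had been read.
Wfdc15b, chr2:164221614-164221913, minus strand: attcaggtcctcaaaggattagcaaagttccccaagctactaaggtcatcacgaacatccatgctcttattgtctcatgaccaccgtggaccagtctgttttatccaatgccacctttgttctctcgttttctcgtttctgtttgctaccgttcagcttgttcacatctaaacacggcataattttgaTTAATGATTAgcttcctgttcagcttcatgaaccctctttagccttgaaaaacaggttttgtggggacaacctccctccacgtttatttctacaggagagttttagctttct
Slpi, chr2:164356458-164356757, minus strand: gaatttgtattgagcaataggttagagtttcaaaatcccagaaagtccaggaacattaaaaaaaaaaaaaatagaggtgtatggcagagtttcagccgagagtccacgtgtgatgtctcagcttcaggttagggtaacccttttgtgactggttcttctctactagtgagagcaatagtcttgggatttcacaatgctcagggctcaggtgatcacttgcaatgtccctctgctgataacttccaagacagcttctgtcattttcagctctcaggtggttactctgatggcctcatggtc
Wfdc2, chr2:164562465-164562764, plus strand: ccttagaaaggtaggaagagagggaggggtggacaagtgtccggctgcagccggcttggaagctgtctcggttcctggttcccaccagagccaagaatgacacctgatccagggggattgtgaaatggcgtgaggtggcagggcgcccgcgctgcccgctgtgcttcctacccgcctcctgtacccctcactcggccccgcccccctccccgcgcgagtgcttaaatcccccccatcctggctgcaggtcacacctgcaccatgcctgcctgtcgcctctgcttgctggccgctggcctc
The match in the Wfdc15b window starts 62 bases before the start site, on the strand of the gene. On either strand these letters occurred in 0.411% of 32851 windows of the same length (135 windows). Among the 5 members with an entry, only the window of Wfdc15b held it. None of their windows held GGGA, any 4 bases and CC in a row, a pattern of NF-kB sites found on either strand in 20.7% of windows, or TATAAA, found in 13.6%. A match is a description of these letters, not a measured binding site.

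The GFP samples held 35530885 to 40815091 reads in genes, whereas TPM (abundance per transcript length, scaled to a fixed total) keeps no depth. Markers followed the labels at the level of groups. The 4 type A markers had a median sum of 779.8 TPM in the cells named type A, against 0.22 TPM in those named type B, and the 8 principal cell markers to 11214 TPM in principal cells. The 5 thick ascending limb markers summed to 33613 to 53916 TPM in cTAL and 53.5 to 701 TPM in CCD tubules. The non-epithelial cells held macrophage markers (median sum 5568 TPM). Of the listed endothelial and stromal markers, Pecam1 and Pdgfrb were at 1 TPM or more in 0 of 32, and Emcn and Col1a2 in 1 of 32 each. The cell A-IC_78, named type A, went against its name, with 0.18 TPM of Slc4a1 and 15161 TPM of Umod. The labels tie no cell to an animal, which makes every cell type a single sample, and no difference between types was tested. The tubule columns carry 7 prefixes, m1 to m7, which no label or header explains. Tubules of 1 prefix may share an animal, and replicates of the sorted samples are not stated to be separate animals, so the p-values below measure the spread between samples, which may be technical.

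In single cells, Defb1 was abundant in type A and principal cells and low in type B cells, Wfdc2 was highest in principal cells, and Wfdc15b was highest in type A cells. Lcn2 was read in 21 of 74 principal cells and 0 of 23 type B cells at 1 TPM or more, the threshold for detection used here. Rnase4 was rare in every type, Tlr4 was read mainly in non-epithelial cells, and Slpi reached 1 TPM in no cell.

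Defb1, which encodes beta-defensin 1, a peptide made constitutively by many epithelia, averaged 2158 TPM over type A cells (median 1941, quartiles 1207 and 2727) and 1698 TPM over principal cells (median 1661, quartiles 884 and 2490). Detection reached 87 of 87 type A cells (lower bound of the exact Clopper-Pearson 95% interval 95.8%, counting error only, as for all intervals here) and 73 of 74 principal cells (98.6%, lower bound 92.7%). These distributions overlapped, so the order of both types is within the spread between cells. Type B cells stood apart, with a mean of 116.8 TPM, a median of 7.20 TPM and a highest cell of 981 TPM, although Defb1 was detected in 18 of 23 of them (78.3%, 56.3% to 92.5%). Of the type A cells, 69 of 87 held 1000 TPM or more, against 51 of 74 principal and 0 of 23 type B cells. Proximal tubule cells had a median of 14.0 TPM (mean 154) and non-epithelial cells a median of 276 TPM (mean 780).

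The Defb1 values in these latter types moved with markers of principal cells, and in non-epithelial cells also with those of intercalated cells. Over 32 non-epithelial cells Spearman's rho of Defb1 with the summed principal cell markers was 0.52 and with the shared intercalated markers 0.50, and over 19 proximal tubule cells it was 0.71 with the principal cell markers and -0.16 with the shared intercalated markers. The points of each correlation are cells that share a library preparation, and the part of RNA from other cells in the Defb1 values was not tested. As a measure of such signal, Aqp2, the water channel of principal cells, was detected in 58 of 87 type A, 3 of 23 type B, 14 of 19 proximal tubule and 15 of 32 non-epithelial cells. The amounts differed more than these shares, with means of 49.1, 2.46, 486 and 183 TPM in that order. Principal cells had a mean of 2142 TPM.

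Wfdc2, which encodes a secreted whey acidic protein also known as HE4, had a mean of 1104 TPM in principal cells (median 753, quartiles 240.0 and 1689) and was detected in 70 of 74 (94.6%, 86.7% to 98.5%). Proximal tubule cells followed with a mean of 307 TPM (median 25.8), type B cells with 259 TPM (median 128), type A cells with 193 TPM (median 4.48) and non-epithelial cells with 119 TPM (median 0.97). Means and medians thus ordered the lower 4 types differently, and their ranges overlapped. In proximal tubule cells Wfdc2 moved with the principal cell markers (rho 0.81, n = 19) and against the proximal tubule markers (rho -0.77), and in non-epithelial cells with the principal cell markers (rho 0.80, n = 32). Whether this signal came from principal cells was not tested.

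Wfdc15b, a mouse gene of the same family, averaged 864 TPM over type A cells (median 308, upper quartile 995), 415 TPM in principal cells (median 6.28), 165 TPM in non-epithelial, 158 TPM in type B and 78.4 TPM in proximal tubule cells. Its values split widely within a type, with 53 of 87 type A cells at 100 TPM or more while the lower quartile of the type was 2.38 TPM. A-IC_78, the cell with thick ascending limb markers, held 20702 TPM, 27.5% of the type A sum, and without it the type A mean was 634 TPM. The proximal tubule mean rested on 1 cell of 1248 TPM, without which it was 13.5 TPM. Detection reached 77 of 87 type A (88.5%, 79.9% to 94.3%), 54 of 74 principal (73.0%, 61.4% to 82.6%) and 13 of 23 type B cells (56.5%, 34.5% to 76.8%).

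Slpi, the secretory leukocyte protease inhibitor of the same cluster, was listed at most at 0.55 TPM, in 1 type A cell. Where no cell was detected, the limit given here and below is 3 cells of the total, not the Clopper-Pearson bound. By that limit 0 cells at 1 TPM allows a share of up to 3.45% of type A cells and 15.8% of proximal tubule cells, the largest and the smallest type. Its neighbours Wfdc2 and Wfdc15b were detected in 180 and 174 cells over the 5 types, and together in 140. In type A cells the counts were 65 and 77 of 87, and together 60. Genes this common share many cells without being linked, and whether they shared more than that was not tested. The levels of Wfdc2 and Wfdc15b were only weakly related (rho 0.13 over all cells, which share depth within a cell).

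**Figure D1:**
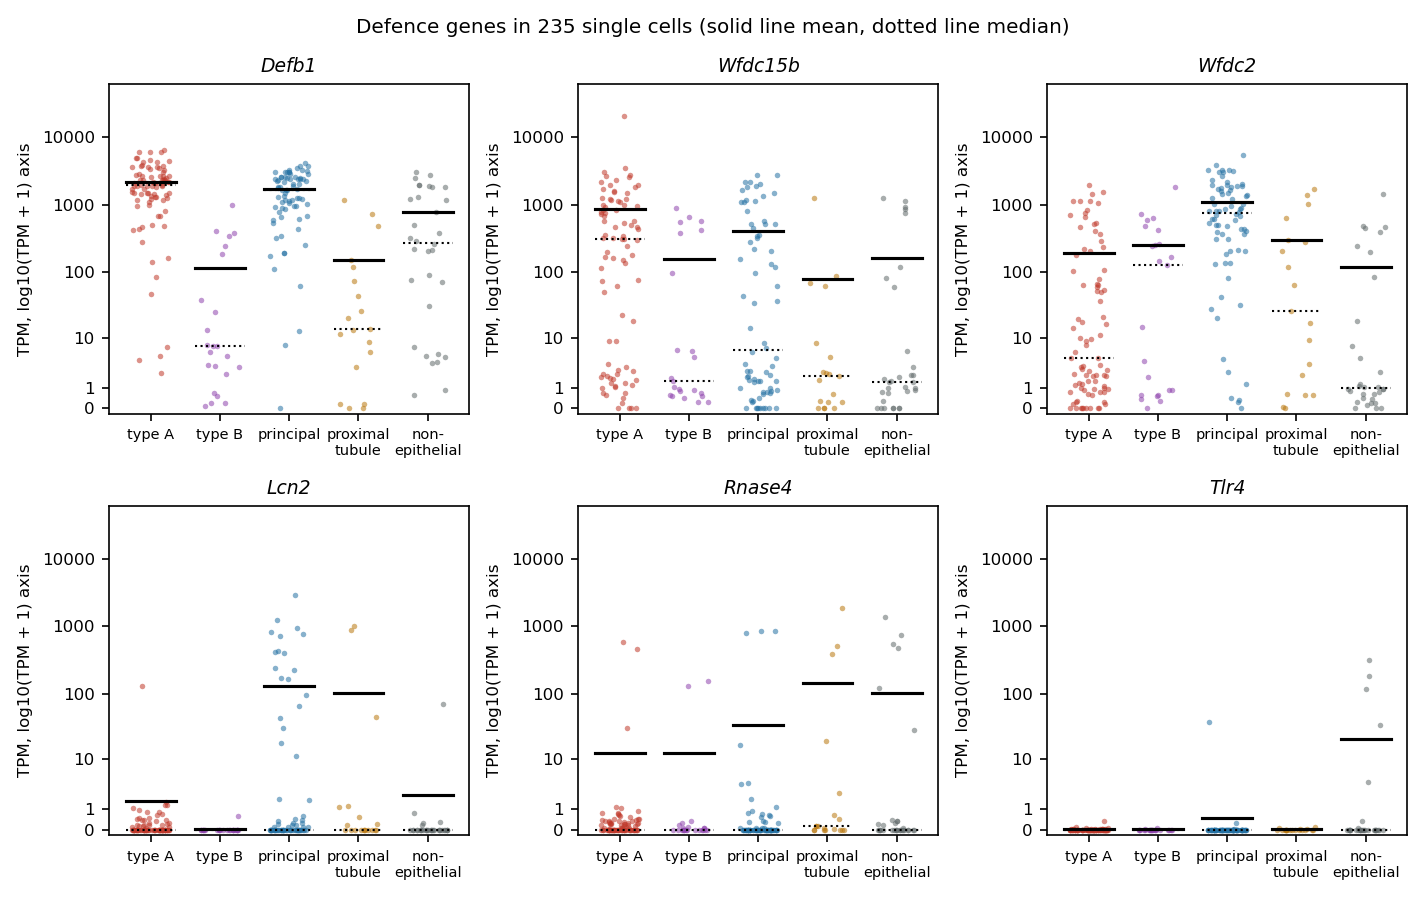
Level of each gene in each single cell by the authors' cell type, in TPM on a log10(TPM + 1) axis, with the mean as a solid and the median as a dotted line; Slpi, at most 0.55 TPM, is left out. Defb1 sits above 1000 TPM in 69 of 87 type A and 51 of 74 principal cells, whereas Lcn2, Rnase4 and Tlr4 are at or near 0 in most cells of every type.

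Lcn2 encodes lipocalin 2 (NGAL), a siderophore-binding protein and a known marker of tubule injury. Its mean was 131 TPM in principal cells, with a median of 0, and it was detected in 21 of 74 (28.4%, 18.5% to 40.1%). The highest principal cell held 2891 TPM, 29.8% of the sum over the type, and 13 held 100 TPM or more. That highest cell also held the highest type A marker sum of all principal cells, 1577 TPM, beside 12160.5 TPM of principal cell markers. Over the 74 principal cells rho of Lcn2 was 0.35 with the type A and 0.19 with the principal cell markers. The part of RNA from other cells was not tested. Proximal tubule cells had a mean of 102 TPM, detected in 5 of 19 (26.3%, 9.15% to 51.2%). The highest of these held 1005 TPM of Lcn2 beside a principal cell marker sum of 10656 TPM, and over the 19 cells rho with the principal cell markers was 0.55. Detection was rare in the others, with 5 of 87 type A cells (5.75%, 1.89% to 12.9%, mean 1.65 TPM), 1 of 32 non-epithelial cells (mean 2.26 TPM) and 0 of 23 type B cells, which by the limit of 3 cells allows a share of up to 13.0%.

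Rnase4 encodes a secreted ribonuclease of the angiogenin family. Detection was low in each type, from 5 of 87 type A cells (5.75%, 1.89% to 12.9%) and 2 of 23 type B cells to 8 of 74 principal cells (10.8%, 4.78% to 20.2%), 6 of 32 non-epithelial cells (18.8%, 7.21% to 36.4%) and 5 of 19 proximal tubule cells (26.3%, 9.15% to 51.2%). The highest mean, 146 TPM in proximal tubule cells, rested for 66.9% on 1 cell of 1857 TPM, which held 3.10 TPM of proximal tubule and 1075 TPM of macrophage markers. Without the highest cell of each type the order changed, to 62.0 TPM in non-epithelial and 51.0 TPM in proximal tubule cells.

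Tlr4, the receptor for bacterial lipopolysaccharide, had a mean of 20.6 TPM in non-epithelial cells and was detected in 5 of 32 (15.6%, 5.28% to 32.8%). Its 3 highest cells, at 318, 184 and 119 TPM, held macrophage marker sums of 7132, 4240 and 10508 TPM. It was detected in 1 of 74 principal cells (1.35%, 0.03% to 7.30%) and in 0 of 87 type A cells, which by the same limit allows a share of up to 3.45%. At this detection rate a low level in epithelial cells was not detectable.

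By the likeness rule (Spearman's rho of at least 0.4 over the cells of all 5 types, among 7565 genes), the genes most like Wfdc2 were the water channel genes Aqp2 (0.59) and Aqp3 (0.56) and the sodium pump regulator Fxyd4 (0.57). Those most like Defb1 were Gbas (0.51), Cyp2u1 (0.48) and Gata3 (0.47), and those most like Lcn2 were Spock3 (0.46), Gm37024 (0.43) and Fxyd4 (0.40). For Rnase4 and Wfdc15b no gene reached 0.4, and the closest to Wfdc15b was Defb1 (0.35). These values mix differences between types with those within types and share the depth of each cell. A cell held a median of 3 of the 7 genes in type A and principal cells and 2 in type B cells, with at most 5.

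The tubules address how collecting duct and thick ascending limb differ. Wfdc15b and Wfdc2 were lower in CCD than in cTAL (log2(TPM + 1) differences of -4.65 and -1.04), and Defb1 and Lcn2 were higher in CCD (2.12 and 4.42). Rnase4 did not pass the test, Slpi was listed at 0 in all 19 tubules, and the mean of Tlr4 lay under the minimum of 1 TPM. Of the 5 members tested with limma, 2 were higher and 2 lower in CCD, beside a background of 18.7% of 13520 genes called, 13.2% higher and 5.5% lower. All log2 differences of TPM use that added 1, so changes of low genes are understated. In whole tubules and sorted fractions alike, fewer cells of a type and less RNA per cell cannot be told apart.

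Wfdc15b ranged from 11596 to 16029.7 TPM in the 8 cTAL (median 13266) and from 370 to 893 TPM in the 11 CCD (median 557). Every cTAL lay above every CCD, beside a background of 5.51% of genes whose groups did not overlap. The means were 13726 ± 1730 TPM (SD, n = 8) and 560 ± 150 TPM (SD, n = 11), the log2 difference was -4.65 for CCD minus cTAL (SE 0.13), and the adjusted p was 9.05e-18 (limma). By mean TPM Wfdc15b ranked 3 among 47069 genes in cTAL and 274 in CCD. The exact two-sided permutation p was 1.32e-05, the smallest that 75582 arrangements can give.

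Wfdc2 ranged from 1818 to 3430.3 TPM in cTAL (median 2781) and from 912 to 1943 TPM in CCD (median 1245). Its groups overlapped through 1 cTAL, m3_cTAL1 at 1818 TPM, and 1 CCD, m6_CCD1 at 1943 TPM. The means were 2743 ± 521 TPM (SD, n = 8) and 1345 ± 308 TPM (SD, n = 11), with a log2 difference of -1.04 (SE 0.13, adjusted p 2.75e-06, limma). The gene thus was among the most abundant of both segments, with rank 44 in cTAL and 94 in CCD. Principal cells had the highest single-cell mean of Wfdc2. Their marker sums were 44.2 to 214 TPM in cTAL and 26368 to 48119 TPM in CCD. The part of any cell type in the Wfdc2 values of the tubules was not tested.

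Defb1 ranged from 1683 to 2857 TPM in CCD (median 1984) and from 311 to 727 TPM in cTAL (median 499), with no overlap. The means were 2173 ± 396 TPM (SD, n = 11) and 503 ± 119 TPM (SD, n = 8), and the log2 difference was 2.12 (SE 0.13, adjusted p 1.11e-11, limma). The exact permutation p was again 1.32e-05. Every cTAL held over 300 TPM of Defb1. Shared intercalated marker sums there were 109 to 269.6 TPM, beside the principal cell marker sums above. The more specific type A and type B marker sums were 0.13 to 1.11 TPM and 0.66 to 4.99 TPM in cTAL. In CCD they were 305 to 816 TPM and 1408 to 2913 TPM. The part of collecting duct cells in the Defb1 values of cTAL was not tested.

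Lcn2 ranged from 0.25 to 353 TPM in CCD (median 81.8) and from 0 to 60.3 TPM in cTAL (median 0.31). In CCD 10 of 11 tubules held between 48.5 and 353 TPM and the other, m2_CCD2, held 0.25 TPM. In cTAL 5 of 8 held under 1 TPM, while m3_cTAL1 held 60.3 TPM, so the groups overlapped. The means were 111 ± 94.7 TPM (SD, n = 11) and 10.3 ± 21.0 TPM (SD, n = 8), with a log2 difference of 4.42 (SE 0.91, adjusted p 0.00101, limma) and an exact permutation p of 9.00e-04. The tubules m3_CCD1 and m3_cTAL1, of the same prefix, were the highest of their segments. With 1 mean per prefix and segment, an alternative chosen after the column names were seen, the difference was 3.80 and the adjusted p 0.0497 (limma).

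Rnase4 had 14.0 ± 7.80 TPM in CCD (SD, n = 11) and 9.30 ± 11.8 TPM in cTAL (SD, n = 8). In cTAL the values fell apart, with 4 tubules at 0 to 0.03 TPM and 4 at 9.75 to 32.3 TPM, and in CCD 1 tubule, m2_CCD2, held 0.04 TPM. The difference of 1.46 (SE 0.77) did not pass the test (adjusted p 0.215, limma). Tlr4 had 0.96 ± 1.01 TPM in CCD, from 0 to 3.19, and 0.07 ± 0.18 TPM in cTAL, from 0 to 0.52. Its difference was 0.72, with an exact permutation p of 0.0144 and an adjusted p of 0.123 when limma was run without the filter. In m2_CCD2 Lcn2, Rnase4 and Wfdc2 had their lowest and Defb1 its highest CCD value. Without that tubule the differences of Lcn2, Defb1, Wfdc2 and Wfdc15b were 5.00, 2.08, -0.98 and -4.66, and all 4 stayed called.

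**Figure D2:**
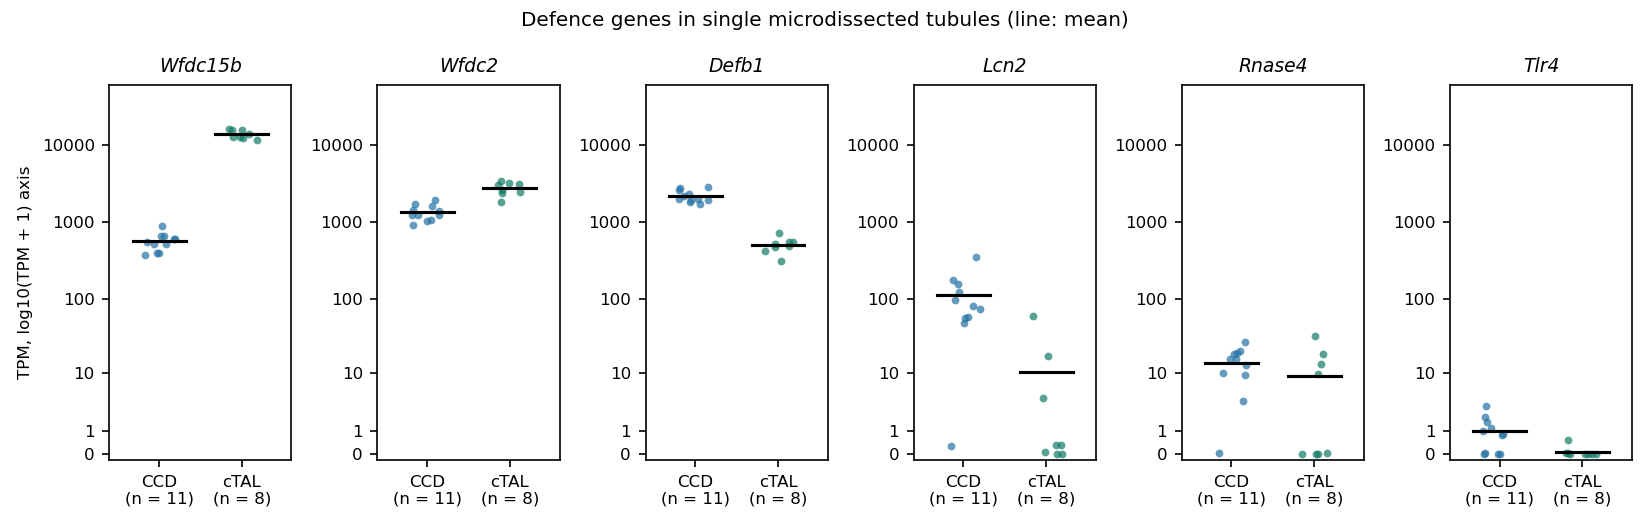
Level of 6 of the 7 genes in each of 11 CCD and 8 cTAL tubules, in TPM on a log10(TPM + 1) axis, with the mean as a line; Slpi, at 0 in all, is left out. Wfdc15b separates the segments without overlap, Defb1 separates them in the opposite direction, and Lcn2 shows 1 low CCD and 1 high cTAL.

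Sorting on c-Kit or DBA asks how far cells chosen by each reagent differ. All 7 members passed the test in limma, with Defb1, Slpi and Wfdc15b higher and Lcn2, Rnase4, Wfdc2 and Tlr4 lower in the c-Kit samples. The background was high, with 44.3% of 14341 genes called (16.1% higher, 28.1% lower) and groups that did not overlap in 73.9%. The median difference of all genes was -0.11 and became 0.02 under quantile normalization, under which no member changed direction or call. Type A marker sums were 3059 to 3097 TPM in c-Kit and 61.1 to 73.1 TPM in DBA samples. Kit, the gene of the protein sorted on, is among the type A markers, so that difference was partly fixed in advance. Principal cell marker sums were 2842 to 3759 TPM in c-Kit and 23272 to 25868 TPM in DBA samples. Type B marker sums were higher in c-Kit samples too, at 1616 to 1633 TPM against 159 to 178 TPM in DBA samples.

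Lcn2 had 16.9 and 11.9 TPM in the c-Kit samples and 114 and 127 TPM in the DBA samples. The log2 difference was -3.00 (SE 0.16, adjusted p 2.74e-05, limma). Wfdc2 had 385 and 324 TPM against 723 and 814 TPM, a difference of -1.12 (SE 0.10, adjusted p 2.34e-04, limma). Both genes were lower in the fraction with fewer principal cell transcripts, and both had their highest single-cell mean in principal cells. Macrophage marker sums moved the same way, at 463 to 535 TPM in c-Kit and 2798 to 2960 TPM in DBA samples, and the part of either cell type in these differences was not tested.

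Defb1 had 1912 and 2035 TPM in the c-Kit and 1188 and 1338 TPM in the DBA samples. The groups did not overlap, but the difference was small, at 0.65 (SE 0.08, adjusted p 8.45e-04, limma). Wfdc15b had 536 and 462 TPM against 357 and 410.3 TPM, a difference of 0.38 (SE 0.10, adjusted p 0.0204, limma). That call was lost without c-Kit replicate 1 (0.27, adjusted p 0.121, limma), DBA replicate 1 (0.28, 0.156) or DBA replicate 2 (0.48, 0.0571), without the low-value filter and without the variance trend. Thick ascending limb marker sums overlapped between the fractions, at 662 to 1102 TPM and 713 to 845 TPM.

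Slpi had 5.40 and 6.68 TPM in the c-Kit and 0.04 and 0.55 TPM in the DBA samples, a difference of 2.47 (SE 0.27, adjusted p 5.54e-04, limma), which ran from 1.06 to 4.34 with pseudocounts of 5 and 0.1. It was thus present in a bulk fraction while no single cell reached 1 TPM. Neutrophil marker sums moved with it, at 54.3 to 73.4 TPM in c-Kit and 0.51 to 3.95 TPM in DBA samples. Of the 6 listed neutrophil genes, Mpo, Ly6g and Ngp were at 0 in all 4 samples. S100a8 and S100a9, the alarmins of granulocytes, accounted for most of the sum, with 25.6 ± 6.63 and 35.1 ± 5.22 TPM in c-Kit samples (SD, n = 2). The part of neutrophil RNA in the Slpi difference was not tested.

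Rnase4 had 18.8 and 16.6 TPM in the c-Kit and 62.5 and 62.6 TPM in the DBA samples, a difference of -1.77 (SE 0.09, adjusted p 2.75e-05, limma). Its overlapping neighbour Ang was lower too, at 3.63 ± 0.21 against 12.6 ± 3.54 TPM (SD, n = 2 each, adjusted p 0.00136, limma). Tlr4 had 4.64 and 2.48 TPM against 14.3 and 13.6 TPM, a difference of -1.76 (SE 0.24, adjusted p 0.00145, limma). Its co-receptor gene Cd14 was lower as well (-2.24), and the macrophage marker sums given above moved with both.

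The GFP fractions address how cells sorted for the Atp6v1b1 reporter differ from the remainder. Of the 7 members, Lcn2, Defb1 and Wfdc2 were higher and Wfdc15b lower in the GFP-positive samples, and Rnase4, Slpi and Tlr4 did not pass the test. The background was 32.6% of 15671 genes called by edgeR's quasi-likelihood test, 15.2% higher and 17.3% lower, with groups that did not overlap in 69.2%. The GFP-positive fraction was not of 1 cell type. Beside type A marker sums of 3757 to 8204 CPM (reads scaled to a common total of reads in genes) against 45.5 to 93.7 CPM, it had higher sums of principal cell markers (1262 to 2035 against 526 to 552 CPM), of distal convoluted and connecting tubule markers (1191 to 1867 against 107 to 155 CPM) and of thick ascending limb markers (10036 to 15499 against 7757 to 8712 CPM). Type B marker sums were higher as well, at 1691 to 2480 CPM against 12.6 to 21.6 CPM.

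Defb1 had 641 and 1328 CPM in the GFP-positive and 133 and 109 CPM in the GFP-negative samples. The log2 difference was 2.95 (SE 0.34, adjusted p 3.21e-04, edgeR), the largest of the called members. Lcn2 had 71.6 and 112 CPM against 20.3 and 13.5 CPM, a difference of 2.38 (SE 0.27, adjusted p 3.09e-04, edgeR). In the authors' RPKM values Lcn2 is listed at 0 in 1 GFP-negative sample, although both count columns of that group hold over 500 reads, and with limma on RPKM values the difference was larger, at 4.23, while the adjusted p was 0.0663. Wfdc2 had 124 and 209.6 CPM against 73.0 and 76.1 CPM, a difference of 1.07 (SE 0.26, adjusted p 0.0146, edgeR). It lost its call without GFP-positive replicate 2 (0.62, adjusted p 0.0630, edgeR).

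Wfdc15b had 80.0 and 86.1 CPM in the GFP-positive and 126 and 106 CPM in the GFP-negative samples, a difference of -0.57 (SE 0.16, adjusted p 0.0279, edgeR). The groups did not overlap, but the call was lost without GFP-negative replicate 1 (adjusted p 0.116, edgeR), GFP-negative replicate 2 (0.102) or GFP-positive replicate 1 (0.0895), at differences between -0.58 and -0.52. Wfdc15b was lower in the fraction with the higher sum of thick ascending limb markers, although cTAL tubules held the most of it.

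Tlr4 had 4.95 and 7.82 CPM in the GFP-positive and 15.7 and 9.01 CPM in the GFP-negative samples, a difference of -1.01 (SE 0.36, adjusted p 0.0629, edgeR). DESeq2 called it (adjusted p 0.0314), as did edgeR without the low-count filter (0.0479), with the replicate number as a block (0.0399) and without GFP-negative replicate 2 (0.0344). Rnase4 had 4.64 and 7.96 CPM against 13.9 and 6.72 CPM and overlapped (-0.76, SE 0.41, adjusted p 0.192, edgeR). Slpi had 0.17 and 0.00 CPM against 1.35 and 0.32 CPM (adjusted p 0.102, edgeR). In the authors' RPKM values Slpi pointed the other way, with 2.29 and 0.23 in the GFP-positive and 0.75 and 0.00 in the GFP-negative samples, which lay under the minimum for that test. Sums of the 4 matched macrophage markers, 17.7 to 25.0 CPM against 87.8 to 164 CPM moved with Tlr4, and those of the 5 matched neutrophil markers, 0.16 to 0.56 against 6.99 to 38.0 CPM with Slpi, and their part was not tested.

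**Figure D3:**
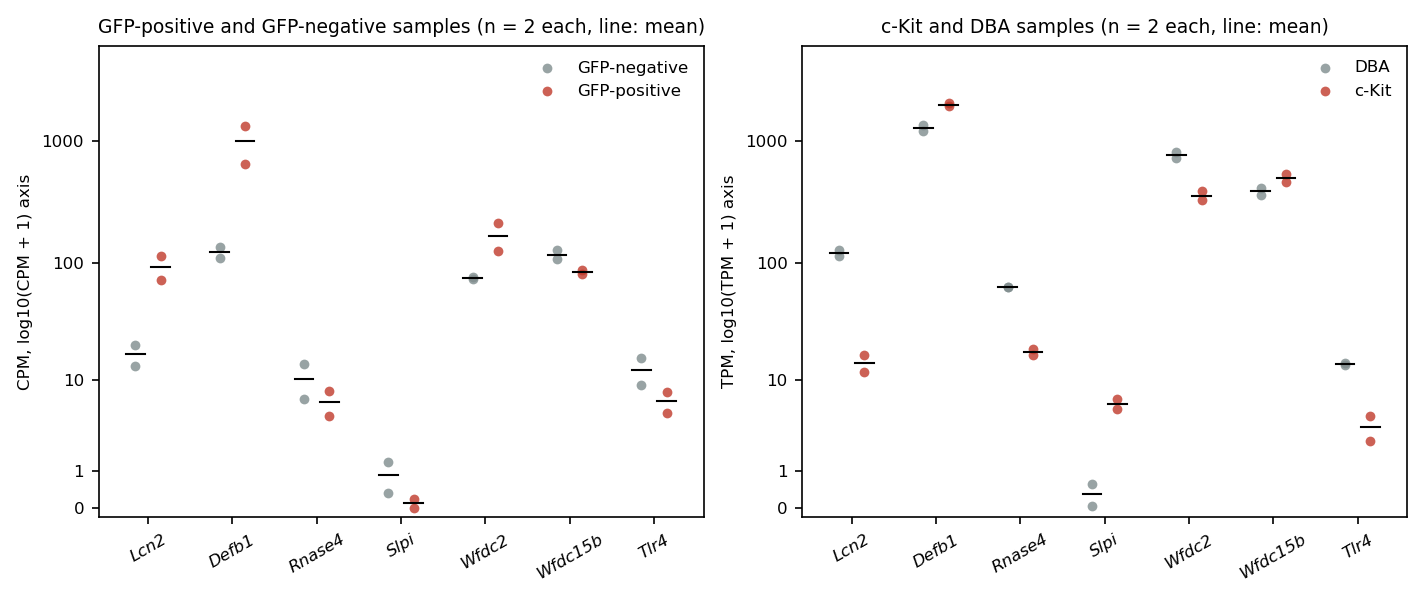
Level of the 7 genes in each sorted bulk sample, GFP fractions in CPM and c-Kit and DBA fractions in TPM, both on log10 axes after adding 1, with the mean of each pair as a line. Lcn2 is higher in the GFP-positive than the GFP-negative samples, at 71.6 and 112 against 20.3 and 13.5 CPM, and lower in the c-Kit than the DBA samples, at 16.9 and 11.9 against 114 and 127 TPM.

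Set side by side, the comparisons placed the members differently, although tables that were scaled separately were not tested against each other. Defb1 was higher in the first-named group of all 3 comparisons, at 2.95 (GFP-positive), 0.65 (c-Kit) and 2.12 (CCD). Lcn2 was higher in GFP-positive and CCD samples (2.38 and 4.42) and lower in c-Kit samples (-3.00). Wfdc2 was higher in GFP-positive samples (1.07) and lower in c-Kit and CCD samples (-1.12 and -1.04). Wfdc15b was lower in GFP-positive and CCD samples (-0.57 and -4.65) and higher in c-Kit samples (0.38).

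**Figure D4:**
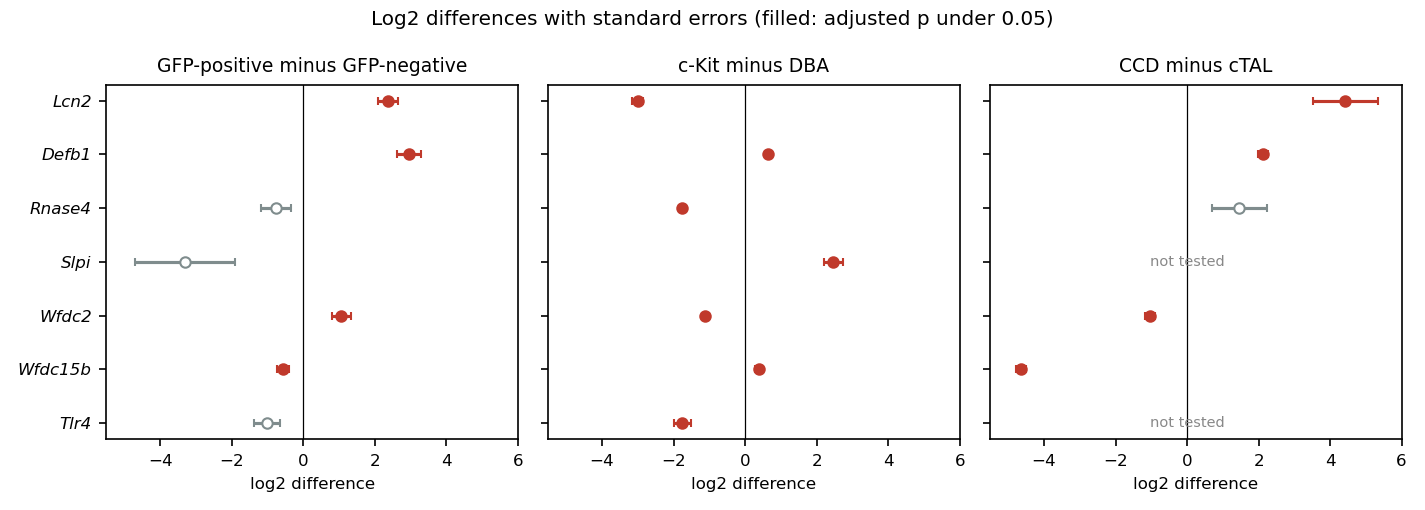
Log2 difference of each gene in the 3 replicated comparisons, with its standard error as a bar; filled points passed an adjusted p of 0.05, open points did not. Wfdc15b at -4.65 and Lcn2 at 4.42, both CCD minus cTAL, lie farthest from 0.

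The wider defence pathway was read in a list of 66 other genes in 5 roles. In the GFP fractions 54 were tested, and 2 were higher and 26 lower in GFP-positive samples. The share over all genes tested was 15.2% higher and 17.3% lower. The median difference of the list was -2.40, beside 0.02 over all genes tested. With limma on RPKM values 0 were higher and 10 lower of 42, and leaving out 1 sample gave 1 to 3 higher and 20 to 28 lower. Of all genes tested, 12.8% were called without overlap at a log2 difference of at least 2, the size for naming a gene of the list. The lower genes included the lysozyme gene Lyz2 (-3.59, means of 25.9 and 306 CPM), the lipopolysaccharide co-receptor Cd14 (-2.94), the receptors Tlr2 (-3.12), Tlr7 (-3.59), Tlr9 (-3.95) and Tlr13 (-3.80), the cytokine gene Il1b (-3.98) and the chemokine genes Cxcl1 (-3.16) and Ccl2 (-5.35). The largest differences of the list were those of Lyz1 (-8.62, means of 0 and 1.27 CPM), S100a9 (-6.87) and S100a8 (-6.68). S100a8 and S100a9 are among the neutrophil markers given above. Past that size too were Defb19 (-5.42), Wfdc17 (-5.21), Tlr11 (-4.64), Tlr8 (-3.78), Cxcl2 (-3.66), Rnase6 (-3.54), Tnf (-2.72), Tlr12 (-2.57) and Lbp (-2.40). Of 21 Toll-like receptors and partners 10 were lower and 1, Tlr3, higher (0.68), named with Spint1 after their values were seen. Among tubular genes, Defb29 (-3.31), the lipocalin receptor Lrp2 (-2.73), the siderophore enzyme Bdh2 (-3.17) and Pigr (-2.12), which carries immunoglobulins across epithelia, were lower. Of these, Pigr had its highest single-cell mean in type A cells, at 2.60 TPM, and the others in proximal tubule cells. Proximal tubule marker sums were lower as well, at 1867 to 3060 CPM in GFP-positive and 14345 to 16126 CPM in GFP-negative samples. Lrp2, with means of 1562 and 9765 CPM, is itself 1 of the 6 genes of that sum. Its agreement with the sum was thus fixed in advance. The macrophage sums given above moved with the myeloid genes. The part of either cell type was not tested. The protease inhibitor gene Spint1 was the other gene that was higher (1.18, adjusted p 9.24e-04, edgeR).

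In the c-Kit and DBA fractions 53 of the 66 were tested, and 10 were higher and 28 lower in c-Kit samples. The share over all genes tested was 16.1% higher and 28.1% lower. The median difference of the list was -0.80, beside -0.11 over all genes. Beside 3.52% of all genes called without overlap at that size, the higher ones with a difference of at least 2 were Lyz1 (3.86), S100a8 (3.83) and S100a9 (4.26). S100a8 and S100a9 are among the neutrophil markers set beside Slpi above. The lower ones past that size were Wfdc16 (-2.93), Cd14 (-2.24), Lbp (-2.57), which delivers lipopolysaccharide to Cd14, the NF-kB regulator Nfkbiz (-2.20) and Cxcl2 (-2.29). Of 13 NF-kB genes and targets 12 were tested and 8 were lower. Without DBA replicate 1 the counts were 6 higher and 21 lower, and without c-Kit replicate 1 or DBA replicate 2 there were also 6 higher.

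In the tubules 34 were tested, and 4 were higher and 3 lower in CCD. The share over all genes tested was 13.2% higher and 5.5% lower, so these counts lie near the background. The median difference of the list was 0.63, beside 0.31 over all genes. Umod, the gene of uromodulin, the main protein of normal urine, had 205 ± 177 TPM in CCD (SD, n = 11) and 40070.0 ± 6723 TPM in cTAL (SD, n = 8), a difference of -8.09 (adjusted p 7.95e-13, limma). As Umod is among the thick ascending limb markers summed above, its difference and that of the sum are not separate results. Defb42, another beta-defensin gene, had 0.35 ± 0.65 TPM in CCD and 58.4 ± 37.6 TPM in cTAL, a difference of -5.35 (adjusted p 2.21e-10, limma), opposite in direction to Defb1. These were the genes of the list called without overlap at a difference of at least 2, beside 3.73% of all genes tested. Pigr was lower (-3.26) and Defb29 higher (4.51), with groups that overlapped, and both were named after their values were seen. The count of higher genes moved between 2 and 7 when 1 tubule was left out, with 7 without m2_CCD2, 6 without m3_CCD1 and 2 without each of m3_CCD2, m4_CCD1, m4_CCD2, m5_CCD1, m6_CCD2, m7_CCD1, m1_cTAL1, m2_cTAL1 and m4_cTAL1, and was 14 with sample weights, so only the 3 lower genes were steady in number over the tubules left out.

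In single cells 24 of the 66 reached a mean of 50 TPM in some type, and 14 of these (58.3%) were highest in non-epithelial cells, beside 23.0% of the 4761 genes of that level. A gene could reach that level through the very type in which it was highest, so these counts describe the genes that reached it and not the whole list. They included 9 of the 13 NF-kB genes, all highest in non-epithelial cells, among them Il1b (1148 TPM), Ccl2 (798 TPM) and Nfkbia (450.1 TPM), as were Lyz2 (3035 TPM), Wfdc17 (1520.0 TPM), Cd14 (958 TPM) and Tlr2 (79.5 TPM). Nfkbia, which encodes an inhibitor of NF-kB, was also present in principal cells, at 408 TPM. Proximal tubule cells had the highest means of Bdh2 (524 TPM), Defb29 (271 TPM), Lrp2 (120 TPM) and Lbp (69.5 TPM). Other means highest in non-epithelial cells, in TPM, were Cxcl2 (352), Nfkbiz (201), Cxcl1 (173), Tnf (161), Rela (100.1), Rnase6 (72.6) and Tnfaip3 (62.9). Spint2 (540 TPM) was highest in type B cells, and Irak4 (75.7 TPM) and Spint1 (71.1 TPM) in principal cells. In principal cells Defb2 averaged 65.7 TPM (12 of 74 cells), and Pglyrp1, which encodes a peptidoglycan recognition protein, averaged 61.7 TPM from a single cell. The highest mean of Umod, 261 TPM, was that of type A cells, but without A-IC_78 it was 87.6 TPM, under the 228 TPM of type B cells, which itself was 43.3 TPM without the highest type B cell.

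**Figure D5:**
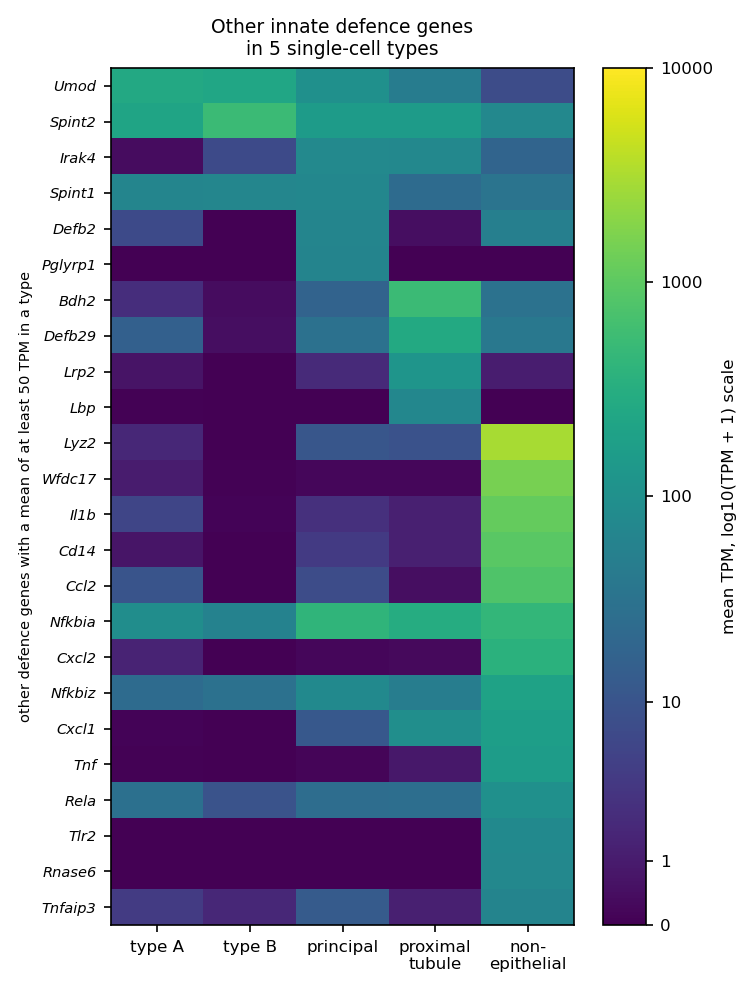
Mean TPM, on a log10(TPM + 1) colour scale, of the 24 other defence genes that reached 50 TPM on average in some cell type, ordered by the type of the highest mean. The last 14 genes, from Lyz2 to Tnfaip3, are highest in non-epithelial cells.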

How the data were processed

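The 7 members, the gene lists and the tests were chosen with earlier results of these data known. The deposited TPM tables hold the authors' abundances for single cells, c-Kit and DBA samples and tubules; the unit of the tubule table was read from its values. The GFP samples have raw read counts per gene from HTSeq-count and RPKM values on RefSeq mm10, per the file headers and names of the deposited tables. The submitters' processing notes name STAR 2.5.1b, RSEM 1.2.31, Seurat and GRCm38.p5, without roles. Rows that name no gene held 66.7% to 72.8% of the listed reads and were dropped before library sizes were taken. No header or label says whether counting used strand, so overlapping genes are uncertain.

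Counts were compared with edgeR 4.0.16 (R 4.3.3; TMM, filterByExpr, quasi-likelihood F test), and CPM values use the reads in genes. For TPM, limma 3.58.1 was fitted to log2(TPM + 1) with a variance trend, keeping genes whose mean reached 1 TPM. P-values were adjusted over all genes tested (Benjamini-Hochberg, threshold 0.05). Only the groups compared entered a fit. Single cells were summarised with Python 3.11.15 and scipy 1.17.1; no doublet caller was run, as TPM values are not molecule counts. The scripts were tested on simulated data.

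Named genes were the 7 members, the 3 genes most like each member at a rho of at least 0.4, and genes of the list that were called without overlap at a log2 difference of at least 2 or had a mean of at least 50 TPM in a cell type. Pearson's r across genes between the deviations of same-numbered samples from their group means was 0.14 for the GFP and 0.03 for the c-Kit and DBA samples, and 0.02 to 0.16 for tubule prefixes, so the numbers were not taken as pairing. Alternatives were DESeq2 1.42.0, other size factors, filters, pseudocounts, quantile normalization, sample weights, blocks and samples left out.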

Additional observations from a re-analysis of the deposited data

Results flagged for a closer look

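In 2 of the 6 members with varying values in the 8 cTAL tubules, 1 tubule lay far from the others by Dixon's test at the 95% level. That test flags about 1 group in 20 by chance where values are normally distributed. Most cTAL values of Lcn2 and Tlr4 lay near 0, so the rate for them is unknown. Lcn2 was 60.25 TPM in m3_cTAL1, with the next tubule at 17.2 TPM and a gap of 0.71 of the whole range. Tlr4 was 0.52 TPM in m7_cTAL1, with the next at 0.01 TPM and a gap of 0.98 of the range. Without m3_cTAL1 the CCD minus cTAL difference of Lcn2 was 5.03 (adjusted p 1.23e-04, limma). The tubules were few and the depth is unknown.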

How the results depend on the processing

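The number of members called stayed within 1.5 times in all alternatives run. It was 3 to 5 of 7 against 4 in the GFP fractions. For c-Kit and DBA it was 5 to 7 against 7, where 5 were tested above a mean of 10 TPM. In the tubules it was 4 or 5 against 4. The 5 in the tubules came from the exact permutation test alone, whose p-values were not adjusted, with Tlr4 added. No member changed direction where it was tested; Slpi in the RPKM values, given above, was not. Leaving out 1 sample gave 3 to 4 calls in the GFP fractions, 6 to 7 for c-Kit and DBA and 4 in the tubules. With the replicate number as a block the calls were 5 (GFP, Tlr4 added) and 7 (c-Kit and DBA), and a block on the tubule prefix gave 4. The samples share only a number, and the block moved no count of all genes by over 1.5 times. A block on the running number of the tubule titles was not run, because the columns do not carry it. Over all genes, limma on RPKM values called 744 higher and 895 lower GFP genes against 2386 and 2715, sample weights called 3391 and 1010 tubule genes against 1782 and 744, and without DBA replicate 1 or 2 the c-Kit and DBA calls were 1456 and 2144, or 1394 and 2064, against 2315 and 4033. Quantile normalization changed the split to 3055 and 3072 there and to 1221 and 1244 in the tubules, where the median moved from 0.31 to -0.03. Members with the highest mean in a collecting duct type numbered 4, and 3 by median. Of the 4761 genes reaching the 50 TPM level, 12.1% were highest in type A, 19.4% in type B and 23.0% in principal cells. A highest mean in these types was thus common, and whether the members exceeded that background was not tested. Members detected in at least 50% of some type numbered 3, and 4 at 0.1 TPM. TPM tables keep no depth, which limits what absence of Lcn2, Slpi or Tlr4 in a cell can show.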
